A study of Mus musculus with 23 samples.

Results

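Vomeronasal type 1 receptor (Vmn1r) transcripts were followed through mouse oocytes and early embryos. The genes described are the numbered Vmn1r genes with at least 50 raw read counts summed over the 8 libraries of fully grown, germinal vesicle (GV) oocytes. This rule kept 25 of 208 numbered Vmn1r genes, out of 56196 genes in each count table. Of the 183 genes left out, 90 had no count in any GV library. The genes were thus chosen by their GV counts, and their levels in oocytes are given as a description. The count came to 50 or more within the het libraries alone for 13 of the 25 genes, and within the WT libraries alone for 21. These counts are raw, and the GV libraries differed in depth.

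The oocytes carried Eif4enif1+/- (het) or were wild type (WT). Eif4enif1 encodes a binding partner of the cap-binding protein eIF4E and takes part in storing and silencing mRNA. Each GV sample was read by T&T-seq as a translatome, the mRNA captured with ribosomes by RiboLace beads, and as a transcriptome, the mRNA of a direct lysate. There were 2 libraries each of het translatome, WT translatome, het transcriptome and WT transcriptome. RNA-seq of embryos gave 3 libraries each of het embryos arrested at the 1-cell stage, het 2-cell, WT 2-cell, het 1-cell and WT 1-cell embryos. Arrested and 2-cell embryos had spent 24 hours in culture, and the other samples are labelled as untreated. The labels do not say whether an embryo's genotype is its own or its mother's, how the allele was made, how many oocytes or embryos a library holds, or whether replicates came from separate animals. The p-values below therefore measure the spread between these libraries, which may be technical.

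Vomeronasal type 1 receptors are G protein-coupled receptors of sensory neurons in the apical layer of the vomeronasal organ, where they detect pheromones and other social odours. In those neurons each cell mostly uses a single receptor gene. The receptor acts through the G protein subunit Gnai2, phospholipase C and the cation channel Trpc2. The mouse family is large, lies in clustered arrays of young duplicates, and many of its coding sequences are intronless.

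The libraries held between 3.62 and 50.49 M (mega) counts in GV oocytes and between 5.6 and 40.38 M in embryos. The shallowest was het transcriptome replicate 1, with 3.62 M. Eif4enif1 had 150 and 97.1 CPM (counts per M) in the het translatome, against 312 and 270 CPM in the WT translatome, and 87.3 and 96.1 CPM in the het transcriptome, against 217 and 222 CPM in the WT transcriptome. It was lower in het oocytes, by a log2 fold change of -1.24 ± 0.26 (SE) in the translatome (adjusted p = 0.0224, edgeR) and -1.26 ± 0.26 in the transcriptome (adjusted p = 0.0283, edgeR). Het 1-cell replicates 1 and 3 stood apart from the other embryo libraries: their 100 most abundant genes held 6.34% and 5.53% of counts, against 38% in het 1-cell replicate 2 and 32.1% to 37.6% in the WT 1-cell libraries. Counts of called receptor genes in the comparisons that use these libraries are given with and without them. Results of all other genes and markers against het 1-cell embryos are given only with them.

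Of the 25 genes, 13 lie on chromosome 7, 6 on chromosome 6, 3 on chromosome 13 and 3 on chromosome 17 (mm10, GENCODE M21). All are annotated as protein coding. In this set 4 genes, Vmn1r112, Vmn1r132, Vmn1r139 and Vmn1r157, held 35514 of the 40494 GV counts of the whole set, or 87.7%. The other 183 numbered family genes together held 749 counts. The 4 genes lie on the plus strand of 1 chromosome 7 array, at chr7:20771185-20772078 (Vmn1r112), chr7:21614092-21614985 (Vmn1r132), chr7:22069057-22097907 (Vmn1r139) and chr7:22761697-22762590 (Vmn1r157). Vmn1r112, Vmn1r132 and Vmn1r157 are single-exon models of 894 bases, while the Vmn1r139 gene has up to 4 exons in a transcript and 1326 exonic bases in all.

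These 4 genes are near-identical copies, and this limits how far each can be read on its own. Their coding sequences have 891 bases each without the stop codon. Those of Vmn1r132 and Vmn1r139 were identical. Vmn1r112 differed from each of the other copies at 3 positions (99.66% identity), and Vmn1r157 differed from Vmn1r132 and Vmn1r139 at 6 (99.33%). Counted from 1 at the first base of the start codon, the changes of Vmn1r157 relative to Vmn1r112 were G69T, G74A and C137A. Those of Vmn1r132 and Vmn1r139 relative to Vmn1r112 were T411G, G412T and C413G. The stretches below show where the copies can be told apart, with the differing bases in capitals and the rest in lower case. They are from GENCODE M21 transcripts, plus strand, mm10. The first pair covers coding positions 49 to 157, at chr7:20771233-20771341 in Vmn1r112 and chr7:22761745-22761853 in Vmn1r157, and Vmn1r132 and Vmn1r139 read as Vmn1r112 there. The second pair covers coding positions 391 to 433, at chr7:20771575-20771617 in Vmn1r112 and chr7:21614482-21614524 in Vmn1r132, where Vmn1r157 reads as Vmn1r112 and Vmn1r139 as Vmn1r132.
Vmn1r112: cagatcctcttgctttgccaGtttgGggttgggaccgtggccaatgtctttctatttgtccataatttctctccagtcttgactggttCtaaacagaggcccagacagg
Vmn1r157: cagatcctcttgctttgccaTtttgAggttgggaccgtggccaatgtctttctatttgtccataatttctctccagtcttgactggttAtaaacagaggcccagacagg
Vmn1r112: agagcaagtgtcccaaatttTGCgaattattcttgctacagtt
Vmn1r132: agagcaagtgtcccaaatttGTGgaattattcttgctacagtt

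Among all stretches of 50 bases in annotated transcripts, 0% of those of Vmn1r112 and of Vmn1r132 were found in no other gene. The unique share was 12.4% for Vmn1r157 and 30.7% for Vmn1r139. The sources used here do not state how reads that match several places were counted, and counts of these copies may include reads of one another. Other genes of the array, Vmn1r148 and Vmn1r100 first among them, share part of these stretches too. The split of the 4-copy sum between the copies can be given for each library. Over the 19 libraries with at least 100 counts in that sum, Vmn1r139 took a median of 38.6% (25.6% to 54%), Vmn1r132 26% (17.8% to 32.2%), Vmn1r112 17% (11.7% to 21.9%) and Vmn1r157 16.6% (10.6% to 20.3%). Vmn1r139 also holds 33.1% of the exonic bases of the 4 genes, and each other copy 22.3%. Below, the 4 copies are also given as a sum. Vmn1r130 and Vmn1r137, a pair from the same array with identical coding sequences, likewise had 0% unique stretches. For the other 19 genes the unique share lay between 58.6% (Vmn1r37) and 99.9% (Vmn1r234). Vmn1r4, Vmn1r71, Vmn1r88, Vmn1r199 and Vmn1r203 overlap another annotated gene, and since no strand step is named their counts may hold reads of it.

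The RefSeq table (GRCm38.p6) held a window of 250 bases before to 50 after the annotated start for 22 of the 25 genes, Vmn1r112, Vmn1r139 and Vmn1r157 among them. For these 3 copies the annotated start is the first base of the start codon, so the window holds the bases before the coding sequence and need not lie at the start of transcription. Its sequence was the same in all 3, so the near-identity of the copies goes on upstream of the coding sequence. It is shown once, at chr7:20770935-20771234 on the plus strand for Vmn1r112, with matches to TATAAA on either strand in capitals. In GENCODE M21 the Vmn1r139 gene begins further upstream, so for that copy this window lies inside the gene.
Vmn1r112 window: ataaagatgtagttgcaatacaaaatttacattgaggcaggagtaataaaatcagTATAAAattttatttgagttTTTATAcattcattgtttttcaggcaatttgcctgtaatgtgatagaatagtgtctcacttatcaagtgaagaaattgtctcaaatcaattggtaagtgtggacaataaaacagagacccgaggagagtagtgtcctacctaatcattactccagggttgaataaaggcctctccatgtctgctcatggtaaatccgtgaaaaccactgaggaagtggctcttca

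The TATAAA letters stood 2 times in that window and at least once in 9 of the 22 receptor windows. They stood in 42.4% of the 205 windows of numbered Vmn1r genes and in 13.6% of all 32851 windows of the table. Of 3 further motifs searched on both strands, CANNTG stood in 21 of the 22 receptor windows, in 82% of the numbered Vmn1r windows and in 72.3% of all. TAATTG stood in 4, in 12.2% and in 8% of these, and TAATTA in 2, in 7.3% and in 5.3%. The 22 windows count the same sequence of the 3 copies 3 times. A match is a description of the letters and not a binding site.

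Per kb of exon, the 4 copies stood far above the rest of the set in GV oocytes. CPM values are given after scaling by the trimmed mean of M values (TMM). Summed over the 4 copies, the level was 7.19 and 8.75 CPM per kb in the het translatome, against 38.9 and 45.7 CPM per kb in the WT translatome. In the transcriptome it was 5.62 and 16.9 CPM per kb in het, against 55.7 and 69.1 CPM per kb in WT oocytes. The other 21 genes together reached 0.138 to 0.242 CPM per kb over the 8 libraries. The odorant receptor (Olfr) genes of the main olfactory system, 1110 in the table, gave 0.118 to 0.163 CPM per kb in these libraries, and the Vmn2r genes of basal vomeronasal neurons, 124 in the table, 0.056 to 0.0924 CPM per kb. The 183 Vmn1r genes under 50 counts gave 0.003 to 0.00586 CPM per kb. The 21 genes were kept for their counts in these libraries while the Olfr and Vmn2r genes were taken whole, so they are not ranked against each other. All 204 numbered Vmn1r genes outside the 4 copies gave 0.0194 to 0.0331 CPM per kb. The plot of chemoreceptor groups shows the values of each GV library.

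**Figure D1:**
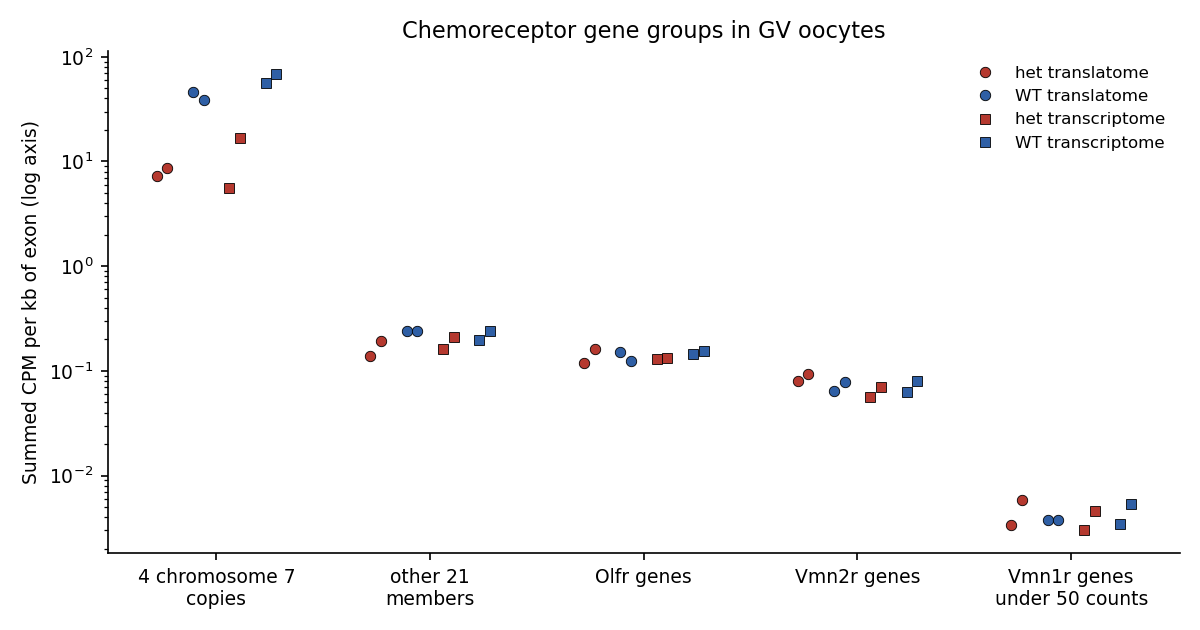
Summed level of each chemoreceptor gene group in CPM per kb of exon (log axis), 1 point per GV library, het in red and WT in blue, translatome as circles and transcriptome as squares. The 4 chromosome 7 copies lie between 5.62 and 69.1 CPM per kb, and the other 21 members between 0.138 and 0.242 CPM per kb.

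By mean level over the 8 GV libraries, Vmn1r132 stood highest per kb (39.8 CPM per kb), followed by Vmn1r139 (31.8), Vmn1r112 (26.1) and Vmn1r157 (25.9). The order among these copies depends on how shared reads were split. Next came Vmn1r62 on chromosome 7 at 1.1 CPM per kb, Vmn1r35 on chromosome 6 at 0.562, Vmn1r137 in the chromosome 7 array at 0.527 and Vmn1r234 on chromosome 17 at 0.437 CPM per kb. Vmn1r71 was lowest, at 0.028 CPM per kb. Just inside the rule were Vmn1r34 with 53, Vmn1r130 with 57 and Vmn1r59 with 58 summed GV counts. Just outside it were Vmn1r148 with 45, Vmn1r58 with 43 and Vmn1r178 with 40. A total of 14 genes reached 100 counts.

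The 4 copies were lower in het than in WT oocytes, in the translatome and in the transcriptome. Their summed level was 28.8 and 35.1 CPM in the het translatome, against 183 and 156 CPM in the WT translatome. In the transcriptome the sum was 22.5 and 67.7 CPM in het oocytes, against 223 and 277 CPM in WT oocytes. Both het libraries lay below both WT libraries in each fraction, and the het transcriptome libraries were the most spread, the lower being the shallow replicate 1 with 90 counts in the sum. Less mRNA per oocyte, or fewer oocytes that hold it, cannot be told apart in these bulk samples.

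Vmn1r112 had 4.9 and 5.82 CPM in the het translatome, against 33.8 and 34.2 CPM in the WT translatome. Its level in total mRNA was 4 and 11.4 CPM for het oocytes, against 41.4 and 51.1 CPM for WT oocytes. The groups did not overlap in either fraction. The log2 fold change was -2.67 ± 0.37 (SE) in the translatome (adjusted p = 0.00303, edgeR) and -2.47 ± 0.37 in the transcriptome (adjusted p = 0.0066, edgeR).

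Vmn1r157 had 4.68 and 5.7 CPM in the het translatome, against 34.4 and 31.7 CPM in the WT translatome. In total mRNA the level was 3.75 and 11.4 CPM for het oocytes, against 41.5 and 52.3 CPM for WT oocytes. Again no het library reached a WT library. Its log2 fold change was -2.67 ± 0.38 in the translatome (adjusted p = 0.00349, edgeR) and -2.5 ± 0.38 in the transcriptome (adjusted p = 0.00754, edgeR).

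Vmn1r132 had 8.47 and 10.1 CPM in the het translatome, against 51.7 and 50.3 CPM in the WT translatome, and 5.75 and 19.5 CPM in the het transcriptome, against 63.6 and 75.1 CPM in the WT transcriptome. Vmn1r139 had 10.8 and 13.4 CPM in the het translatome, against 63.3 and 39.9 CPM in the WT translatome, and 9 and 25.4 CPM in the het transcriptome, against 76.8 and 98.3 CPM in the WT transcriptome. Both genes were lower in het oocytes without overlap. For Vmn1r132 the log2 fold change was -2.46 ± 0.39 in the translatome (adjusted p = 0.00654, edgeR) and -2.36 ± 0.4 in the transcriptome (adjusted p = 0.0113, edgeR). For Vmn1r139 it was -2.1 ± 0.39 in the translatome (adjusted p = 0.0128, edgeR) and -2.28 ± 0.4 in the transcriptome (adjusted p = 0.0124, edgeR). The plot of the 4 copies in GV oocytes shows the same gap for each gene.

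**Figure D2:**
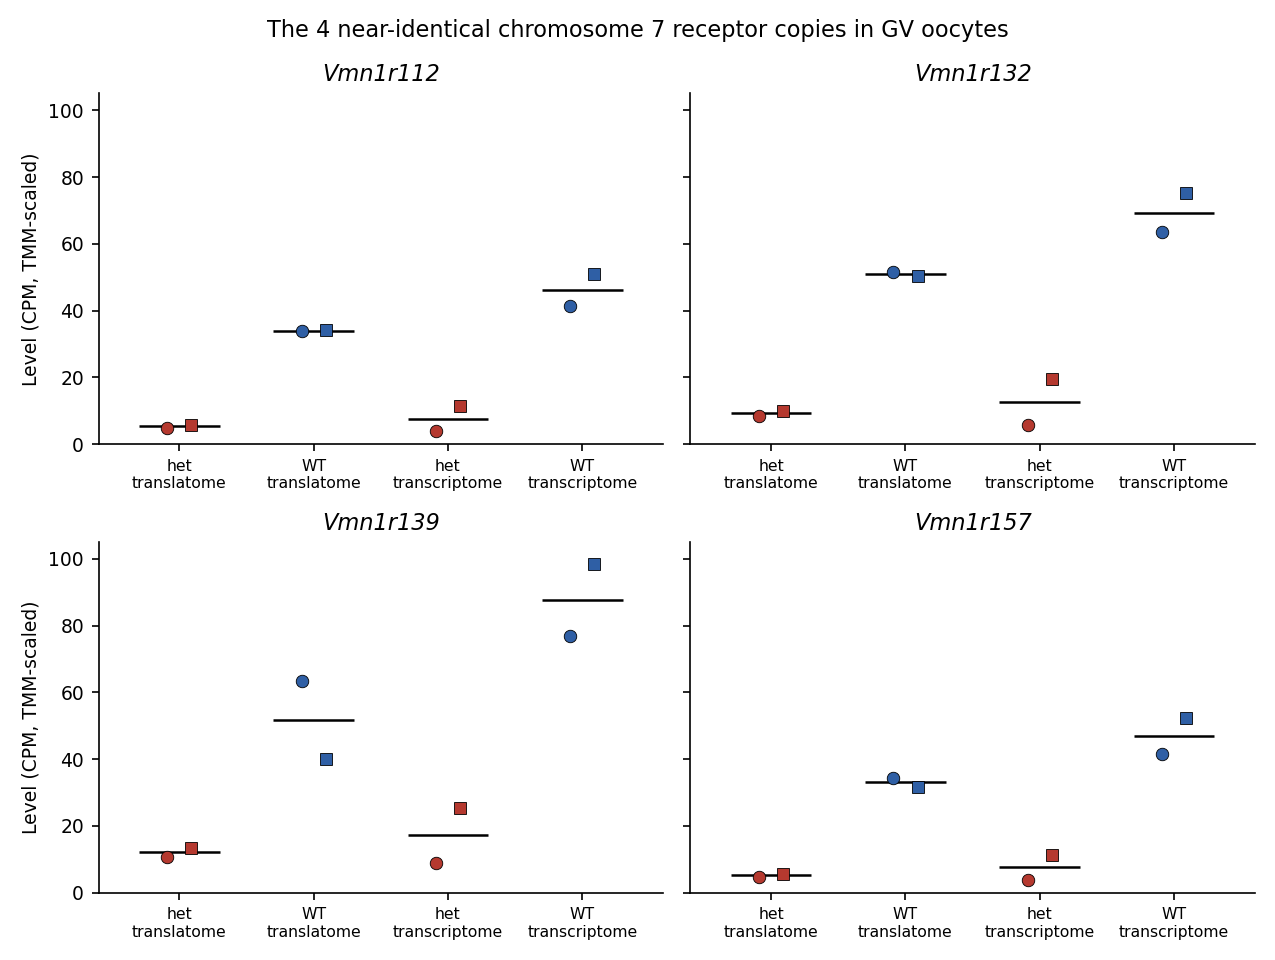
Level of each copy in CPM, 1 point per library (circle for replicate 1, square for replicate 2), het in red and WT in blue, with the mean of 2 libraries as a line. In each panel both het points lie below both WT points of the same fraction.

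Of the 24 genes tested in GV oocytes (Vmn1r71 did not pass the filter on low counts), these 4 were called lower and 0 higher in het than in WT oocytes, in the translatome and again in the transcriptome. A call is a Benjamini-Hochberg adjusted p under 0.05 over all 22409 genes tested. Over all of these, 2.01% were called lower and 2.61% higher in the translatome, and 1.14% lower and 1.41% higher in the transcriptome. Since the 4 copies share reads, they are not 4 independent measurements. Both fractions came from the same GV samples, so the transcriptome calls are not an independent repeat of the translatome calls. Without het translatome replicate 1, Vmn1r112 and Vmn1r157 were still called in the translatome, while Vmn1r132 (adjusted p = 0.0672, edgeR) and Vmn1r139 (adjusted p = 0.115, edgeR) were not. Vmn1r139 also missed the threshold in the translatome without het translatome replicate 2 or without WT translatome replicate 1, and in the transcriptome without het transcriptome replicate 1, the shallow library (adjusted p = 0.055, 0.056 and 0.0521, edgeR).

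None of the other 20 tested genes was called in either fraction. Their log2 fold changes ran from -3.62 to 1.3 in the translatome, with a median of -0.72, and from -1.74 to 1.74 in the transcriptome, with a median of -0.31. The medians over all genes tested were 0.04 and -0.04. In the translatome 16 of these 20 values were below 0, and in the transcriptome 12 were. Every het library was below every WT library for 15 of the 24 tested genes in the translatome, as for 24.9% of all genes, and for 8 of the 24 in the transcriptome, as for 28.5% of all genes. Every het library was above every WT library for 0 of the 24 in the translatome and 1 of the 24 in the transcriptome, as for 28.4% and 21.8% of all genes. With so few counts most of these genes had wide errors, as the plot of fold changes shows. The genes were kept by their counts in these same libraries, which 21 of the 25 reached in WT libraries alone and 13 in het libraries alone. The lean towards lower values in het is therefore only a description. The part of that choice, and of reads shared between genes, in it was not tested.

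**Figure D3:**
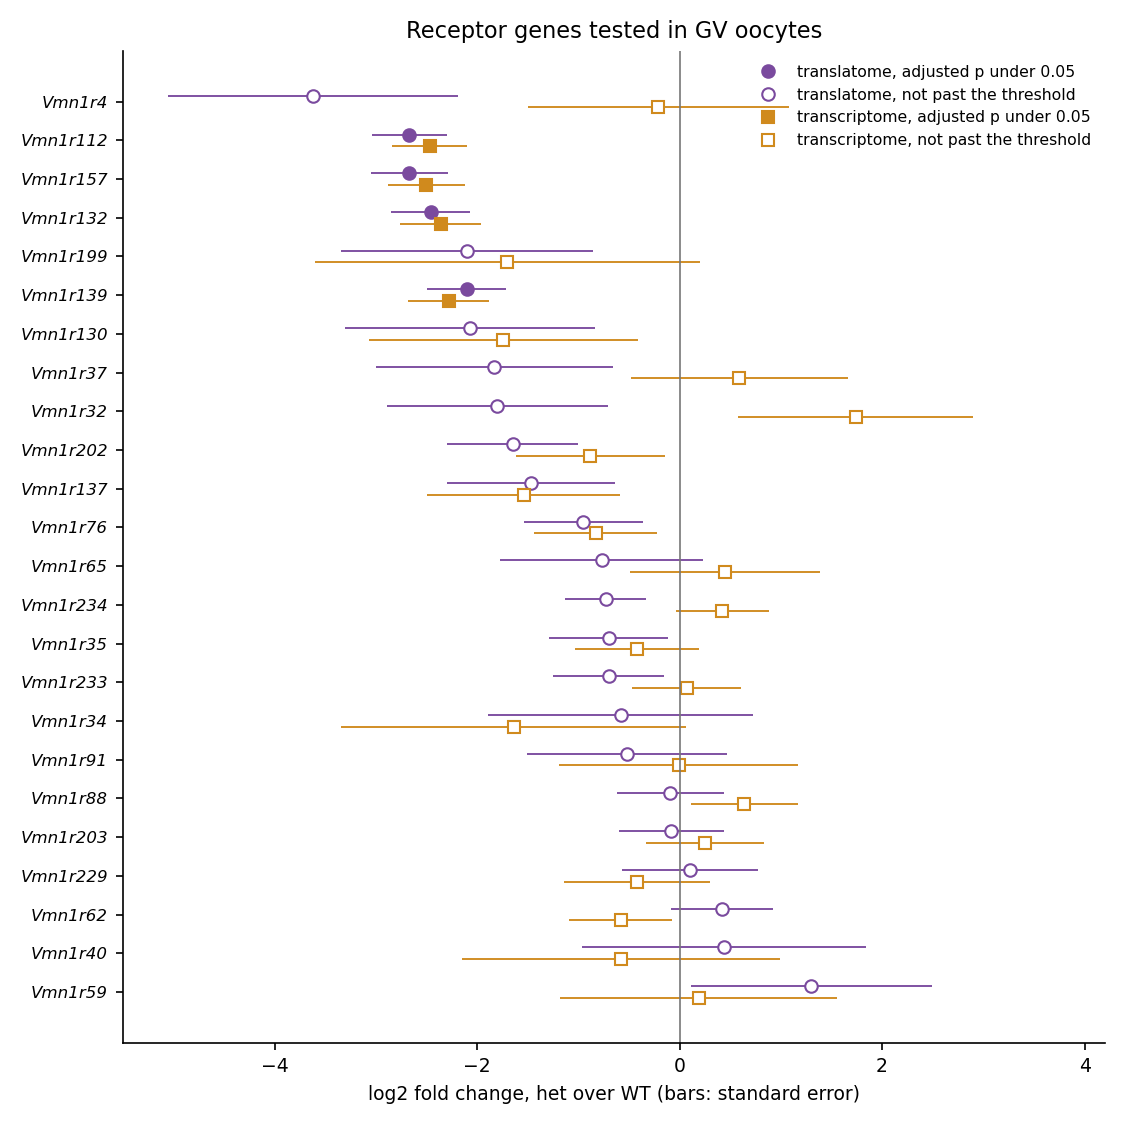
Log2 fold change, het over WT, of the 24 receptor genes tested in GV oocytes, with its standard error, translatome in purple circles and transcriptome in orange squares, filled where the adjusted p was under 0.05. The filled points are Vmn1r112, Vmn1r157, Vmn1r132 and Vmn1r139, between -2.67 and -2.1.

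Vmn1r137, from the same array, gave 21 raw counts over the 4 het libraries and 109 over the 4 WT libraries, which differ in depth. After scaling, its log2 fold change was -1.47 ± 0.83 in the translatome (adjusted p = 0.336, edgeR) and -1.54 ± 0.95 in the transcriptome (adjusted p = 0.406, edgeR). The log2 fold change of Vmn1r62 was 0.42 ± 0.5 in the translatome and -0.58 ± 0.51 in the transcriptome, and that of Vmn1r35 was -0.7 ± 0.59 and -0.42 ± 0.61. Against the direction of most of the set, Vmn1r59 had the largest value in the translatome (1.3 ± 1.19, adjusted p = 0.576, edgeR) and Vmn1r32 in the transcriptome (1.74 ± 1.16, adjusted p = 0.442, edgeR). Vmn1r32 showed how thin these counts were: it had 1 and 16 counts in the het transcriptome libraries, against 1 and 14 in the WT transcriptome libraries.

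Markers of granulosa and cumulus cells, which surround the oocyte in the follicle, were higher in the het libraries. In each fraction 4 of the 16 listed markers passed the test, all of them higher, Fst, Amhr2 and Vcan in both fractions, Nr5a2 in the translatome and Npr2 in the transcriptome. Over all genes tested, 2.61% were called higher in the translatome and 1.41% in the transcriptome. The summed level of the list was 645 and 974 CPM in the het translatome, against 190 and 390 CPM in the WT translatome, and 367 and 277 CPM in the het transcriptome, against 111 and 198 CPM in the WT transcriptome. No marker of the list was at 0 in the GV table. Its part in the lower receptor levels was not tested. The summed level of 12 oocyte markers ran from 20300 to 56400 CPM in het and from 23900 to 69100 CPM in WT libraries, so the labelled cell type was present in each. Of these, 1 was called in the translatome, Kit, lower in het, and 0 in the transcriptome. Sperm and blood markers had no gene called in either fraction, with summed levels of at most 24.2 and 15.8 CPM.

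Whether the genotype difference was unlike between fractions was tested as an interaction. It was called for 0 of the 24 receptor genes, against 0.00446% of all genes called higher and 0.00892% called lower. The smallest p-values belonged to Vmn1r32 (-3.54 ± 1.59), Vmn1r234 (-1.14 ± 0.61) and Vmn1r4 (-3.41 ± 1.92), with adjusted p = 0.555, 0.594 and 0.613 (edgeR), and Vmn1r59 had the largest value of the opposite sign (1.11 ± 1.78). In all, 1 of the 24 had an unadjusted p under 0.05, and DESeq2 called 0. For the copies the interaction was -0.2 ± 0.5 in Vmn1r112, -0.1 ± 0.53 in Vmn1r132, 0.18 ± 0.54 in Vmn1r139 and -0.17 ± 0.52 in Vmn1r157.

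Between the fractions, 1 of the 24 receptor genes was called, in WT oocytes, where 8.95% of all genes were called higher in the translatome. Vmn1r234, a chromosome 17 receptor (chr17:21226087-21235467, plus strand) with the highest share of unique stretches in the set (99.9%), was called higher in the translatome than in the transcriptome of WT oocytes. In het oocytes it had 3.21 and 5.37 CPM in the translatome, against 1.75 and 1.59 CPM in the transcriptome, a log2 difference of 1.38 ± 0.46 that missed the threshold (adjusted p = 0.0804, edgeR). In WT oocytes it had 5.69 and 8.51 CPM in the translatome, against 1.2 and 1.26 CPM in the transcriptome, a log2 difference of 2.52 ± 0.42 that passed it (adjusted p = 0.00349, edgeR). Both translatome libraries lay above both transcriptome libraries in each genotype, as for 31.6% of all genes in het and 27.7% in WT oocytes. The het and WT differences were not shown to differ, by the interaction above.

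In het oocytes 0 of 24 receptor genes were called between fractions by edgeR and 0 by DESeq2, where 6.19% of all genes were higher and 1.91% lower in the translatome, and 3 of the 24 had an unadjusted p under 0.05. In WT oocytes Vmn1r234 made 1 of 24 higher, with 0 lower, where 8.95% of all genes were higher and 5.64% lower. The 4 copies were called in neither genotype: their differences ran from -0.68 to -0.54 in het and from -0.76 to -0.44 in WT oocytes. The smallest p-values in het oocytes after Vmn1r234 were those of Vmn1r233 (-1.32 ± 0.56, adjusted p = 0.154, edgeR) and Vmn1r37 (-2.61 ± 1.2, adjusted p = 0.188, edgeR). Of the 16 granulosa and cumulus markers 2 were higher in the het and 7 in the WT translatome than in the transcriptome of the same genotype, and of the 12 oocyte markers 3 in each, with 0 lower in either list, and their part in the Vmn1r234 result was not tested. The largest value against the direction of most receptor genes tested in het oocytes was that of Vmn1r199 (1.69 ± 1.94, adjusted p = 0.62, edgeR). The labels name no molecular identifiers, so amplified reads are not independent molecules.

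Parts of the receptor pathway were present in GV oocytes. None of the 22 tested genes of 27 listed for type 1 receptor signalling was called between het and WT oocytes in either fraction. Their median log2 fold change was 0.04 in the translatome and -0.1 in the transcriptome. Gnai2, the G protein subunit these receptors use, had 58.7 and 43.5 CPM in the het translatome, against 53.7 and 29.2 CPM in the WT translatome. Trpc2, the transduction channel, had 2.68 and 1.42 CPM in the het translatome, against 2.57 and 1.54 CPM in the WT translatome. Omp, a marker of mature sensory neurons, had at most 2 counts in any GV library. Gnb1 (mean 58.3 CPM), Rgs3 (29.4 CPM) and Plcb4 (16 CPM) were also above 10 CPM. Between fractions, Gnai2 and Rgs3 were higher in the het translatome than in the het transcriptome, and Gnai2, Itpr3, Rgs3, Arrb1 and Arrb2 in the WT translatome than in the WT transcriptome. Over all genes tested, 6.19% were higher in the het translatome and 8.95% in the WT translatome. Of the other pathway lists, Calr was higher in the WT translatome (1.22 ± 0.32, adjusted p = 0.0251, edgeR) and Lbr, a nuclear envelope protein, lower in the het translatome (-0.96 ± 0.27, adjusted p = 0.0443, edgeR), each against the transcriptome of the same genotype. Of the 11 vomeronasal neuron markers 6 were tested, and 0 of these were called between genotypes. Their summed level ran from 1590 to 3300 CPM in het and from 1690 to 3060 CPM in WT libraries, and most of it came from genes that are not particular to these neurons: Uchl1, a ubiquitin hydrolase also known from oocytes (mean 2180 CPM), and Tubb3, a tubulin (257 CPM), both named after their values were seen. Stmn2, Gap43 and Ncam1 averaged 0.00275, 0.0369 and 0.0439 CPM.

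Among 13 genes for receptor trafficking and folding, 10 were tested, and 1 was called between genotypes. Over all genes tested, 2.01% were called lower and 2.61% higher in the het translatome than in the WT translatome. Calr, a chaperone of the endoplasmic reticulum, was lower in the het translatome (-1.35 ± 0.33, adjusted p = 0.0361, edgeR). The others above 10 CPM on average were Reep5, Calr4, Canx, Reep2 and Reep4, between 84.7 and 159 CPM. Of the 17 regulators known from vomeronasal and olfactory neurons 13 were tested. Tfap2e, a factor of basal vomeronasal neurons, was higher in the het translatome (1.76 ± 0.37, adjusted p = 0.0211, edgeR), as was Kdm1a, a histone demethylase tied to olfactory receptor choice (1.74 ± 0.36, adjusted p = 0.0203, edgeR). In the transcriptome 0 were called. Meis2, Lbr, Cbx3, Rbpj, Ldb1 and Ehmt1 also exceeded 10 CPM on average, Meis2 with 820 CPM the most abundant, and none was called between genotypes.

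Other genes of the chromosome 7 array also differed between genotypes. From Vmn1r91 to Vmn1r157, at chr7:20099680-22762590, the annotation lists 119 genes over 2.66 Mb. They include 43 numbered Vmn1r genes, of which 7 are in the set. Of the other 112 genes 21 passed the filter. In the translatome 5 of the 21 were called lower in het and 0 higher, and in the transcriptome 4 lower and 0 higher, with median log2 fold changes of -1 and -1.3. Among all genes 2.01% and 1.14% were called lower, and the medians were 0.04 and -0.04. Gm10668 had 1.87 and 2.03 CPM in the het translatome, against 14.9 and 11 CPM in the WT translatome (-2.74 ± 0.36, adjusted p = 0.0026, edgeR). Gm4567 (-2.82 ± 0.37), Gm6176 (-2.5 ± 0.41) and Gm4545 (-2.8 ± 0.49) were likewise lower in the het translatome, and all 4 also in the het transcriptome, by -2.79 to -3.11. Gm8685 was called in the translatome (-1.71 ± 0.36, adjusted p = 0.0211, edgeR) and not in the transcriptome, and the difference between fractions was not tested for it. None of these 5 genes shares a 50-base stretch with the 4 receptor copies. They are not all independent of one another, since 96.7% of the stretches of Gm10668 also occur in Gm4567 and 90.2% in Gm6176. Of the stretches of Gm4545, 69.1% occur in Gm10668, 69.1% in Gm4567 and 87.2% in Gm6176. The 4 genes called in the transcriptome may thus count reads of one another, while Gm8685 shares no stretch with the others.

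In embryos the 4 copies were also found, at levels that varied widely between libraries of a group. Embryo and GV tables were counted separately and are not tested against each other. Their summed level was 30.4, 57.3 and 41.2 CPM in het 2-cell embryos, against 66.6, 86.8 and 85.2 CPM in WT 2-cell embryos. It was 10.9, 19.4 and 22 CPM in het 1-cell embryos, against 76, 10.5 and 0.874 CPM in WT 1-cell embryos. Arrested het embryos had 0.0942, 1.96 and 24.1 CPM, that is 1, 38 and 312 counts. The WT 1-cell and the arrested libraries were the most uneven, as the plot of receptor transcripts in embryos shows, and 1 library of each held most of the group's counts.

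**Figure D4:**
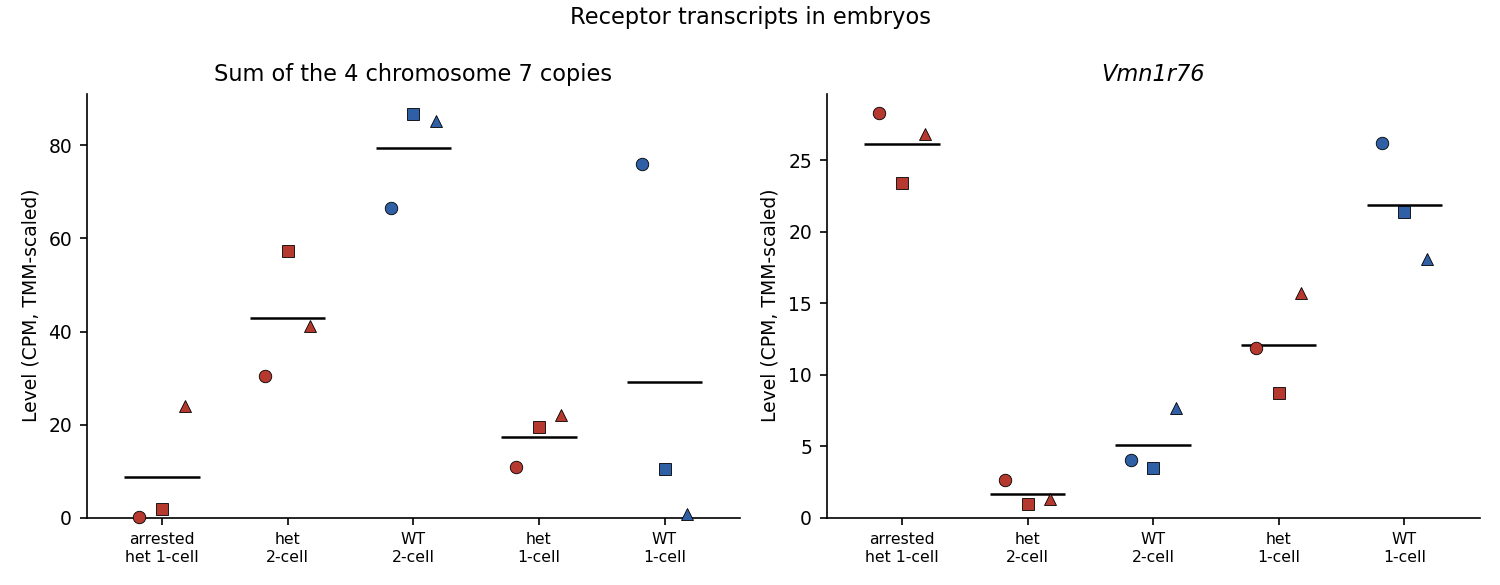
Summed level of the 4 chromosome 7 copies (left) and level of Vmn1r76 (right) in CPM, 1 point per embryo library (circle, square and triangle for replicates 1 to 3), het in red and WT in blue, means as lines. The sum runs from 0.0942 to 24.1 CPM in arrested embryos and from 66.6 to 86.8 CPM in WT 2-cell embryos, while Vmn1r76 runs from 23.4 to 28.3 CPM in arrested and from 0.987 to 2.65 CPM in het 2-cell embryos.

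Of the 17 receptor genes tested in embryos, 0 were called between het and WT at the 1-cell stage, where 0% of all 23656 genes tested were called higher and 0% lower, and 0 of the 17 had an unadjusted p under 0.05. DESeq2 called 0 there as well. The smallest p-values were those of Vmn1r76 (-0.86 ± 0.49), Vmn1r199 (-3.46 ± 2.48) and Vmn1r229 (1.31 ± 1.24), each with an adjusted p = 1 (edgeR). Without het 1-cell replicates 1 and 3 the count was 0 as well, and Vmn1r76 gave -1.31 ± 0.85, Vmn1r199 -1.97 ± 3.81 and Vmn1r229 0.11 ± 2.03, again at an adjusted p = 1 (edgeR). At the 2-cell stage 0 of 17 were called as well, where 0.00423% of all genes were called higher and 0% lower, and 2 of the 17 had an unadjusted p under 0.05, while DESeq2 called 1, Vmn1r76, lower in het (adjusted p = 0.0373). Every het library was below every WT library for 4 of the 17, as for 7.24% of all genes: Vmn1r76, Vmn1r112, Vmn1r132 and Vmn1r139. Every het library was above every WT library for 3 of the 17, as for 5.64% of all genes: Vmn1r62, Vmn1r88 and Vmn1r229. Vmn1r229 gave 1.96 ± 1.22 and Vmn1r88 0.88 ± 1.1, each with an adjusted p = 1 (edgeR). The log2 fold change of Vmn1r139 was -1.07 ± 1.13 and that of Vmn1r132 -0.84 ± 1.38, each with an adjusted p = 1 (edgeR). Vmn1r76 had 2.65, 0.987 and 1.31 CPM in het 2-cell embryos, against 4.06, 3.48 and 7.7 CPM in WT 2-cell embryos (-1.62 ± 0.5, adjusted p = 0.829, edgeR). Vmn1r35 had 32, 0 and 0 counts in het 2-cell embryos and 0 in each WT 2-cell library, so its difference rested on 1 library. Vmn1r62 had 45, 25 and 8 counts in het 2-cell embryos, against 2, 7 and 0 in WT 2-cell embryos (3.3 ± 1.72, adjusted p = 0.97, edgeR).

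In WT 2-cell embryos 4 of the 17 tested receptor genes were called lower than in WT 1-cell embryos, and 0 higher. None of these 4 was one of the chromosome 7 copies. Over all genes tested, 17.9% were lower and 28.5% higher, and the median log2 fold change was 0.59. Lower calls were thus common among all genes, and these 4 are not read as particular to the receptor set. Vmn1r76 had 4.06, 3.48 and 7.7 CPM in WT 2-cell embryos, against 26.2, 21.4 and 18.1 CPM in WT 1-cell embryos (-2.11 ± 0.51, adjusted p = 0.00408, edgeR). Vmn1r35 had no count in any WT 2-cell library, against 67, 66 and 120 counts in WT 1-cell libraries, and was at least 164-fold lower if 3 counts over the group are taken as the floor (adjusted p = 0.00431, edgeR). Vmn1r37 also had no count in WT 2-cell libraries, against 19, 26 and 0 counts in WT 1-cell libraries, at least 29.2-fold lower by the same floor (adjusted p = 0.0194, edgeR). Vmn1r62 had 2, 7 and 0 counts in WT 2-cell libraries, against 51, 72 and 34 in WT 1-cell libraries (-4.74 ± 1.82, adjusted p = 0.044, edgeR). Every WT 2-cell library was below every WT 1-cell library for 6 of the 17, as for 28.9% of all genes. Every WT 2-cell library was above every WT 1-cell library for 1 of the 17, as for 40.6% of all genes. Of the 4 called genes, Vmn1r76, Vmn1r35 and Vmn1r62 were among those 6, while Vmn1r37 was at 0 in 1 WT 1-cell library.

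Without het 1-cell replicates 1 and 3 in the fit, Vmn1r76 and Vmn1r35 were still called between these stages, while Vmn1r37 (adjusted p = 0.057, edgeR) and Vmn1r62 (adjusted p = 0.0762, edgeR) were not. Leaving out WT 1-cell replicate 2 or WT 2-cell replicate 1 also brought the count to 2. The copies moved the other way with wide errors, by 1.37 ± 1.14 in Vmn1r139, 1.55 ± 1.39 in Vmn1r112, 1.51 ± 1.41 in Vmn1r132 and 1.49 ± 1.32 in Vmn1r157, and none was called (adjusted p = 0.331 to 0.386, edgeR).

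Arrested het embryos held more Vmn1r76 than het 2-cell embryos of the same culture time. The level was 28.3, 23.4 and 26.8 CPM in arrested embryos, against 2.65, 0.987 and 1.31 CPM in het 2-cell embryos, a log2 fold change of 3.98 ± 0.55 (adjusted p = 0.00942, edgeR). The groups lay far apart. It was the 1 receptor gene of 17 called higher, with 0 lower, where 3.85% of all genes were higher and 4.55% lower. Without het 1-cell replicates 1 and 3 in the fit it stayed called (3.93 ± 0.62, adjusted p = 0.0186, edgeR). Without het 2-cell replicate 2 or 3 its adjusted p was 0.0504 and 0.0517 (edgeR) at log2 fold changes of 3.71 and 3.84, and in a fit of these 6 libraries alone it was 0.259. Among the copies Vmn1r157 had the smallest p (-3.16 ± 1.43, adjusted p = 0.165, edgeR). Arrested replicate 3 held most of the copies' counts in its group, 312 in the sum, against 1 and 38 in replicates 1 and 2. Without it, 5 of the receptor genes were called, 4 lower and 1 higher, and without het 2-cell replicate 1 there were 2, both higher. Copies share reads, so calls of several copies are not independent. No share of all genes is given for these fits, and their counts are not read as particular to the receptor set.

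Against het 1-cell embryos, 0 of the 17 receptor genes were called in arrested embryos, where 9.97% of all genes were higher and 3.91% lower, and 2 of the 17 had an unadjusted p under 0.05. Vmn1r76 had 28.3, 23.4 and 26.8 CPM in arrested embryos, against 11.9, 8.69 and 15.7 CPM in het 1-cell embryos (1.11 ± 0.49, adjusted p = 0.135, edgeR), without overlap. Vmn1r35 had 4, 0 and 2 counts in arrested embryos, against 73, 47 and 76 counts in het 1-cell embryos (-4.9 ± 1.79, adjusted p = 0.0828, edgeR). Vmn1r199 gave 4.54 ± 2.55 (adjusted p = 0.235, edgeR). By DESeq2 in place of edgeR 2 genes were called in this comparison, Vmn1r76 higher and Vmn1r35 lower. Without het 1-cell replicates 1 and 3, which leaves 1 library in that group, edgeR called 0, and Vmn1r76 gave 1.39 ± 0.86 (adjusted p = 0.536, edgeR), Vmn1r35 -4.74 ± 2.23 (adjusted p = 0.394, edgeR) and Vmn1r199 2.98 ± 4.03 (adjusted p = 0.787, edgeR). Without arrested replicate 3, 4 were called, all lower, and without arrested replicate 1 there was 1, higher. For these fits, too, no share of all genes is given, and the counts are not read as particular to the receptor set.

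In embryos, 0 of 19 tested signalling genes were called between het and WT at either stage, where at most 0.00423% of all genes were called in either direction. Between WT 2-cell and WT 1-cell embryos 4 were higher, Gng8, Trpc2, Grk2 and Arrb1, and 2 lower, Plcb4 and Adcy3, where 28.5% of all genes were higher and 17.9% lower. Plcb4 was also higher in arrested than in het 2-cell embryos (2.15 ± 0.6, adjusted p = 0.0391, edgeR) and Gnb1 higher in arrested than in het 1-cell embryos (1.61 ± 0.43, adjusted p = 0.0231, edgeR). Among 11 tested trafficking genes 3 were higher in WT 2-cell than in WT 1-cell embryos, Rtp3, Reep3 and Reep6, and Reep4 was lower. Against het 1-cell embryos, Rtp3 was higher and Reep4 lower in arrested embryos. Among 12 tested regulators Ehmt2 and Cbx3 were higher, and Meis2, Tfap2e and Ldb1 lower, in WT 2-cell than in WT 1-cell embryos. In arrested embryos Lbr and Cbx3 were lower than in het 2-cell embryos, while Ehmt2 and Cbx3 were higher and Ldb1 lower than in het 1-cell embryos. Over all genes, 3.85% were higher and 4.55% lower in arrested than in het 2-cell embryos. Against het 1-cell embryos, 9.97% were higher and 3.91% lower in arrested embryos.

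Some markers of other cell types were also called between embryo groups. Over all genes tested, 28.5% were higher and 17.9% lower in WT 2-cell than in WT 1-cell embryos. In arrested embryos 9.97% were higher and 3.91% lower than in het 1-cell embryos. Against het 2-cell embryos, 3.85% were higher and 4.55% lower in arrested embryos. Calls in short lists near these shares are not read as particular to the markers. Of 2 blood markers tested, both were higher in WT 2-cell than in WT 1-cell embryos and in arrested than in het 1-cell embryos. Whether blood cells were the source of these reads was not tested. The summed level of the 7 listed was 7.44, 400 and 212 CPM in arrested, 175, 283 and 309 CPM in het 2-cell, 381, 552 and 391 CPM in WT 2-cell, and at most 4.33 CPM in 1-cell embryos. Of 7 markers of the 2-cell stage 5 were higher in arrested than in het 1-cell embryos, and 0 were called between arrested and het 2-cell embryos. Oocyte markers were lower in WT 2-cell than in WT 1-cell embryos for 8 of 12 and higher for 0, with a median log2 fold change of -2.54, the comparison in which 4 receptor genes were lower. Their summed level was 6770, 5240 and 5790 CPM in WT 2-cell embryos, against 18000, 13500 and 16400 CPM in WT 1-cell embryos. In arrested embryos 4 of the 12 were lower than in het 1-cell embryos, and 0 were called against het 2-cell embryos. The summed oocyte marker level was 15500, 5190 and 4920 CPM in arrested, against 1630, 13900 and 1370 CPM in het 1-cell embryos. In het 1-cell replicates 1 and 3, which stood apart, this sum lay below that of every arrested library. Of 11 tested granulosa and cumulus markers 2 were higher and 2 lower in WT 2-cell than in WT 1-cell embryos, and 1 was higher in arrested embryos than in each other het group, with summed levels of 50.9 to 101 CPM over the 15 libraries. Of 4 tested sperm markers 1 was higher and 1 lower in WT 2-cell than in WT 1-cell embryos, and 1 was higher in arrested than in het 2-cell embryos, with sums of 1.18 to 10.5 CPM. Of 8 tested vomeronasal neuron markers 3 were higher and 2 lower in WT 2-cell than in WT 1-cell embryos, and 1 higher and 1 lower in arrested than in het 1-cell embryos. No marker of these lists was called between het and WT embryos. The part of these markers in the receptor results was not tested.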

How the data were processed

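The files hold raw read counts per gene, deposited by the authors as 1 table of 8 GV libraries and 1 of 15 embryo libraries. Per the submitters' processing notes the tools were Trim Galore 0.6.4, HISAT2 2.1.0 and featureCounts 1.6.5 on mm10. The sources used here give no annotation release, strand setting or rule for multi-mapping reads.

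Counts were tested with edgeR 4.0.16 in R 4.3.3 (quasi-likelihood F test, filterByExpr, TMM scaling), 1 model of all groups per table, with Benjamini-Hochberg adjustment over all genes tested and a threshold of 0.05. The SE of a log2 fold change was derived from the F statistic. The fit across genes was tested on simulated data. DESeq2 1.42.0 served as an alternative. The other alternatives were RLE scaling, no expression filter, a replicate block, leaving out each library, fitting the compared libraries alone, omitting het 1-cell replicates 1 and 3, and a minimum of 100 summed counts. Gene models are from GENCODE M21 and upstream windows from RefSeq.

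The receptor genes and the gene lists were chosen with earlier results of these data known. Genes named are the 8 with most counts per kb, in each comparison up to 6 called in each direction or else the 3 smallest p, the largest change against most members in GV comparisons, the 4 with most embryo counts and those around the count minimum. Called genes of the pathway lists (signalling, trafficking, regulators), and those above 10 CPM in GV oocytes, are named too, except 1 that is not reported here. Cell type markers are given mainly as counts and sums.

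Both fractions of a GV sample share a specimen number in the labels, which pairs them. Same-sample deviations correlated by 0.265 in het and 0.0492 in WT oocytes over 9075 genes.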

Additional observations from a re-analysis of the deposited data

How the results depend on the processing

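The 4 calls in the GV translatome between het and WT oocytes ranged from 2 to 4, and those in the transcriptome from 3 to 4, when each library was left out in turn, and stayed at 4 under every other alternative. For WT fractions the count was 2 without an expression filter and ranged from 1 to 2 with a library left out, against 1. Between het and WT 2-cell embryos DESeq2 called 1 gene, lower in het (Vmn1r76, adjusted p = 0.0373), against 0. Between WT 2-cell and WT 1-cell embryos the count was 2 without het 1-cell replicates 1 and 3 and ranged from 2 to 4 with a library left out. Between arrested and het 2-cell embryos DESeq2 called 2 genes and a fit of the compared libraries alone called 0, with a range of 0 to 5 when a library was left out, against 1. Between arrested and het 1-cell embryos DESeq2 called 2, with a range of 0 to 4 when a library was left out, against 0. The cause was not tested.

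With a library left out, the interaction of Vmn1r4 ranged from -6.19 to 2.52 and the het fraction difference of Vmn1r37 from -3.67 to 4.62. The positive values, without het transcriptome replicate 2, are opposite in sign to those with all libraries, and neither was called. The leave-out fits with 1 library in a group assume that it varies like the other groups.

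Between genotypes and between embryo groups replicate numbers are only shared. Correlations of deviations between genotypes were -0.346 in the translatome and -0.45 in the transcriptome, and from -0.454 to 0.0927 in embryos. In the embryo comparisons within a genotype they ran from -0.178 to 0.257. With the replicate block the calls were 4 in the GV translatome, 4 in the transcriptome and 3 between WT 2-cell and WT 1-cell embryos, where Vmn1r62 missed the threshold (adjusted p = 0.0709, edgeR). With the oocyte sample as a block, Vmn1r234 was still called in WT fractions, and no other count of calls moved. The interaction fitted on compared libraries alone has no value of its own, since it uses all 8 libraries. Low counts limit most genes outside the 4 copies.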
